A study of Homo sapiens with 30 samples.

Results

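The genes described here are the zinc finger genes of chromosome 19, taken as the protein-coding genes of that chromosome in GENCODE whose symbol is ZNF followed by a number and at most 1 letter. The rule found 246 genes among 20163 protein-coding genes. It left 1234 other protein-coding genes on chromosome 19 and 262 genes with the same kind of symbol on other chromosomes, and both sets were used for comparison. The rule used names and positions only, but it was set with earlier results of these data known.

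Occupancy was measured by chromatin immunoprecipitation followed by sequencing (ChIP-seq) in MDA-MB-231, an established triple-negative breast cancer cell line, to compare parental cells with cells lacking SAP30, which belongs to the SIN3 corepressor complex. SAP30 and the SIN3 scaffold proteins SIN3A and SIN3B were precipitated from parental cells. RNA polymerase II (Pol II), histone H3 trimethylated on lysine 4 (H3K4me3) and histone H3 acetylated on lysine 9 (H3K9Ac) were precipitated from parental cells and from the knockout line SAP30-KO1. SAP30-KO1 was made with CRISPR/Cas9 and 1 guide RNA and is a mixture of several single-cell clones, so that it stands for 1 guide, and all the chromatin was crosslinked with formaldehyde and sonicated. There were 9 groups of 2 replicates, which gave 18 libraries, and for each library a list of peak summits was deposited. The lists held between 10861 (SIN3A) and 54622 (H3K9Ac) summits, and the sequencing depth behind them is unknown. A gene was taken to hold a promoter summit when a summit lay within 1000 bp of one of its start sites. The best such summit was given its rank in its own list, as the percentage of the list with a better score, so that 0% is the strongest peak of that library.

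Zinc finger proteins of the C2H2 class read DNA with a row of small fingers, each held by a zinc ion. Many of those encoded on chromosome 19 also carry a KRAB domain, which recruits the corepressor TRIM28 and, through it, the H3K9 methyltransferase SETDB1, and they are best known for silencing retrotransposons. The genes arose by repeated tandem duplication and lie in clusters. In many cell types their promoters are active while their last exons, which encode the fingers, are covered by H3K9me3, a silencing mark that was not measured here. The members encoded between 1 and 36 fingers of the C2H2 pattern, with a median of 12, and ZNF208 had the most. Of 3096 fingers counted, 3043 (98.3%) lay in the last coding segment of the transcript.

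Some short words recurred in the promoters of the members. The 6 promoters printed here, apart from that of ZNF329, are shown because SIN3A occupancy, described later, differed with these words. Of the 215 members with H3K4me3 at the promoter, 112 held CCAATCAG, CCGGAAGT or both AATGTAGT and TTCCCAGA, so many promoters are not represented by those printed. Each is the 300 bases from 250 before to 50 after the start site of 1 transcript, read 5′ to 3′ on the strand of the gene in GRCh37. ZNF441 (chr19:11877565-11877864, plus strand) and ZNF443 (chr19:12551786-12552085, minus strand) stand for members of 1 cluster that held SIN3A. Capitals mark CCAATCAG, which contains the CCAAT box known to be read by the factor NF-Y.
ZNF441: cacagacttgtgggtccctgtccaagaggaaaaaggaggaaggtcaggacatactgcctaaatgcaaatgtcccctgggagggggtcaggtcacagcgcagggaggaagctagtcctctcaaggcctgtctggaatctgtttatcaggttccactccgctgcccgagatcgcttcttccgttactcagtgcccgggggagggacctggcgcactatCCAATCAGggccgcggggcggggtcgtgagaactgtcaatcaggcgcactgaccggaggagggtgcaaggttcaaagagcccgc
ZNF443: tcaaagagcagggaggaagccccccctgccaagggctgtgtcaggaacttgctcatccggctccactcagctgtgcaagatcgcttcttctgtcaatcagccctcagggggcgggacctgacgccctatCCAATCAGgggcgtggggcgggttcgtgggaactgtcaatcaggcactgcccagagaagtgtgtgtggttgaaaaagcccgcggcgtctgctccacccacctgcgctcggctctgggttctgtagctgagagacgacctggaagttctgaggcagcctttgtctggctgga

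ZNF653 (chr19:11616605-11616904, minus strand) lies in the same cluster and held SAP30 and SIN3B in both replicates but SIN3A in neither. Capitals mark CCGGAAGT or its reverse complement ACTTCCGG, the core read by ETS family factors.
ZNF653: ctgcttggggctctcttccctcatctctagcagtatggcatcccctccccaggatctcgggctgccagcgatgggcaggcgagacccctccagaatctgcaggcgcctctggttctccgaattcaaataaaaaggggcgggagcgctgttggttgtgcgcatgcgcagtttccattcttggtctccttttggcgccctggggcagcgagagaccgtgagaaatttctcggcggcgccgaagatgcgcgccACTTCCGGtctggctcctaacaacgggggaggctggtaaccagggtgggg

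ZNF225 (chr19:44617302-44617601, plus strand) and ZNF234 (chr19:44645457-44645756, plus strand) are neighbours in a cluster of the long arm and also held SAP30 and SIN3B without SIN3A. Capitals mark AATGTAGT and TTCCCAGA or their reverse complements, which overlap by 1 base where they stand together and are then part of the long element known to be read by ZNF143. The second of these words stood 4 times in the window of ZNF225. The window of ZNF234 also holds CCAATCAG, left in lower case, although SIN3A was in neither replicate there.
ZNF225: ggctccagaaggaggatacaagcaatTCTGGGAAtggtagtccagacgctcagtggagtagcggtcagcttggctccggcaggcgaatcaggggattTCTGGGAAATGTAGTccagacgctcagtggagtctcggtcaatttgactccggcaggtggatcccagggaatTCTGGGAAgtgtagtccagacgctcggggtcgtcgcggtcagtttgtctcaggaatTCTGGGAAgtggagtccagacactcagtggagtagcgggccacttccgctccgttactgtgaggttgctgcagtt
ZNF234: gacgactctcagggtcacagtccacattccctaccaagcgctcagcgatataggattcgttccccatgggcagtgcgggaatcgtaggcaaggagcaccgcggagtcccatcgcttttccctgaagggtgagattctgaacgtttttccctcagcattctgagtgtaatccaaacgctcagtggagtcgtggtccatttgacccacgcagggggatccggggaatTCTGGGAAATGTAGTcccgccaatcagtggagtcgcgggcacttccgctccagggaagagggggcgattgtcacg

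ZNF329 (chr19:58662107-58662406, minus strand) had no promoter summit in any library and is shown because it had the highest CpG ratio of the members without one. Capitals mark its 28 CpG dinucleotides, 1.21 times the number that its C and G content gives by chance.
ZNF329: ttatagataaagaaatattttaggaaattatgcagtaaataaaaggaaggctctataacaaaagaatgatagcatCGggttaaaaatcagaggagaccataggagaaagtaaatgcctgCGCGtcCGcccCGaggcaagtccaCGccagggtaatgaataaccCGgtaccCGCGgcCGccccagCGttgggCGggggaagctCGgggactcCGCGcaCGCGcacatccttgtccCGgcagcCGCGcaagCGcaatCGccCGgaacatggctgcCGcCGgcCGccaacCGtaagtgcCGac

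Most of the members had an occupied promoter. SAP30 was at 208 of 246 member promoters in both replicates (84.6%), against 61.0% of all protein-coding genes. SIN3B was at 198 (80.5%, against 51.5%), and Pol II in parental cells was also at 198 (80.5%, against 57.5%). H3K4me3, the mark of active and poised promoters, was at 215 (87.4%, against 63.6%), and H3K9Ac was at 209 (85.0%, against 61.2%). SIN3A was the exception with 81 members (32.9%), close to the 31.4% of all genes. ZNF genes of other chromosomes had much the same shares, at 81.3% for SAP30, 71.8% for SIN3B and 31.7% for SIN3A, whereas the other genes of chromosome 19 had 56.1%, 49.1% and 27.3%. Both ZNF sets thus stood above the other genes of the chromosome. These shares describe gene sets and carry no test, since genes are not replicates.

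**Figure D1:**
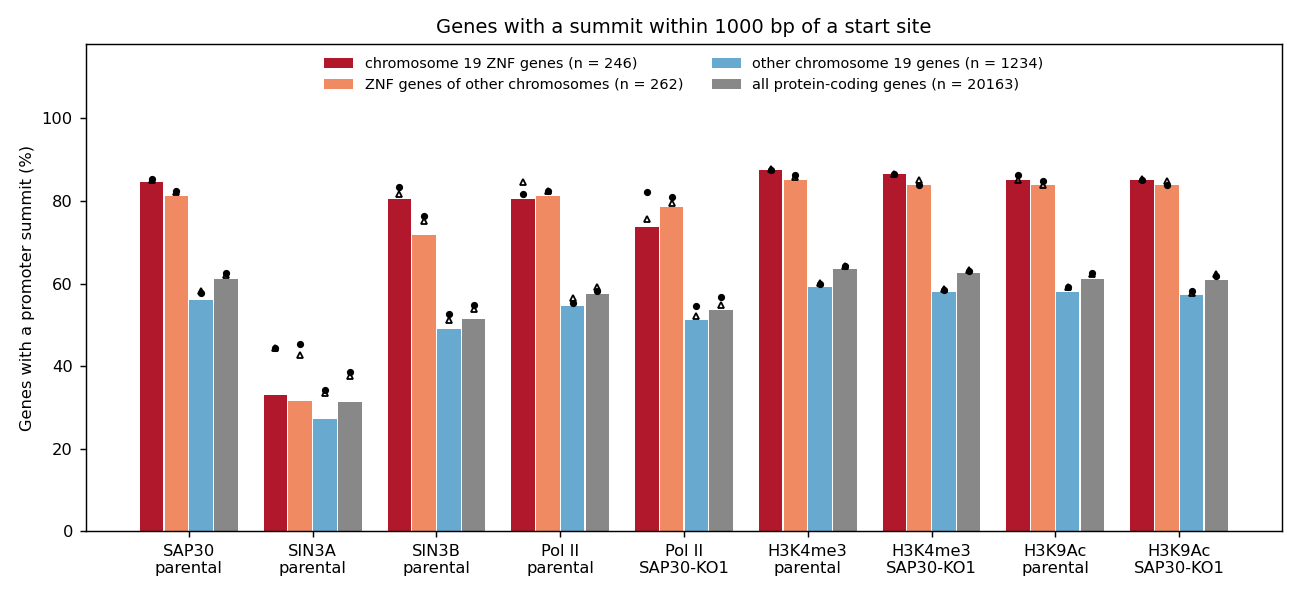
Share of genes with a promoter summit, in percent, for each antibody and cell line. Bars give the share with a summit in both replicates, filled circles replicate 1 alone and open triangles replicate 2 alone, for the chromosome 19 ZNF genes, ZNF genes of other chromosomes, other chromosome 19 genes and all protein-coding genes. Both ZNF sets stand well above the others for every antibody but SIN3A. For SIN3A they stand at 32.9% (members) and 31.7%, close to all genes at 31.4%, with the other chromosome 19 genes at 27.3%.

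The 2 libraries of an antibody held nearly the same number of members. SAP30 was at 210 and 209 members in replicates 1 and 2, SIN3B at 205 and 201, H3K4me3 in parental cells at 215 and 216, and parental H3K9Ac at 212 and 209. SIN3A was at 109 members in each replicate, of which only 81 were in both, so that SIN3A was the antibody whose replicates differed most in which members they held. Pol II was at 201 and 208 members in parental cells and at 202 and 186 in SAP30-KO1, where replicate 2 had the fewest.

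The markers of the line were checked as well. All 5 genes chosen as active in mesenchymal breast cancer cells (VIM, CD44, CAV1, AXL and MSN) had promoter summits in all 18 libraries. Of 5 luminal or epithelial genes, GATA3 had none, CDH1 had H3K4me3 in parental cells only, ESR1 and PGR had no Pol II, and EPCAM had Pol II in all 4 Pol II libraries. No SAP30 precipitate of the knockout line was among the lists, so the loss of SAP30 was not checked with them.

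Occupancy of the members was close to all or none. Of the 246 members, 29 (11.8%) had no promoter summit in any of the 18 libraries, while 179 (72.8%) had one in 16 or more, and 79 had one in all 18. Only 14 members (5.69%) lay between 1 and 13 libraries, against 11.7% of all genes. Among all genes 32.4% were in no library and 49.98% in 16 or more. ZNF genes of other chromosomes were much like the members, with 11.5% in no library, 69.8% in 16 or more and 8.02% between 1 and 13. The members with SAP30 in both replicates and no H3K4me3 in any library numbered 0.

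The 29 members without a summit were spread over the chromosome. In order of position the first were ZNF556, ZNF177, ZNF560, ZNF208 and ZNF729. The others, listed after their values were seen, were ZNF99, ZNF723, ZNF728, ZNF536, ZNF382, ZNF793, ZNF404, ZNF233, ZNF285, ZNF229, ZNF541, ZNF534, ZNF578, ZNF677, ZNF582, ZNF667, ZNF471, ZNF835, ZNF773, ZNF154, ZNF814, ZNF135, ZNF329 and ZNF132. ZNF536, a regulator of neuronal differentiation, lies alone, more than 500 kb from any other member. The members without a summit had the same median number of fingers as the occupied ones, 12 in each.

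The promoter windows of members without a summit were as rich in CpG, by their medians, as those of members with one. Each window belongs to 1 start site of a gene, whereas a summit near any of its start sites counted. The window of an occupied member can thus lie away from its summit. At ZNF331 the start site of the window was 54041399, and the best SAP30 summits were at 54024372 and 54024390. In the 300-base window the ratio of observed to expected CpG had a median of 0.76 in the 29 members without a summit, with quartiles of 0.61 and 0.97, and of 0.77 in the 217 with one. Over all protein-coding genes the median was 0.31 in genes without a summit and 0.85 in genes with one. ZNF genes of other chromosomes without a summit were in between, with a median of 0.47 over 30 genes. The usual contrast between CpG-poor promoters without a summit and CpG-rich occupied ones was therefore not seen in the medians of the members. Single members without a summit varied widely, from ZNF556 with a ratio of 0.31 and ZNF208 with 0.41 to ZNF329 with 1.21, whose window is printed above. DNA methylation was not measured in these libraries.

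The longest stretch without regular occupancy lay in the cluster from ZNF101 to ZNF254. There 8 neighbouring members over 0.92 Mb were each in at most 8 of the 18 libraries, and ZNF729, ZNF99, ZNF723 and ZNF728 were in none. ZNF676 was in the 4 H3K4me3 libraries alone, ZNF492 in the 2 parental ones of H3K4me3, ZNF730 in 1 of SAP30 and 1 of H3K4me3, and ZNF98 in 8. The member before this stretch, ZNF257, was in 15 libraries and the member after it, ZNF724, in all 18.

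**Figure D2:**
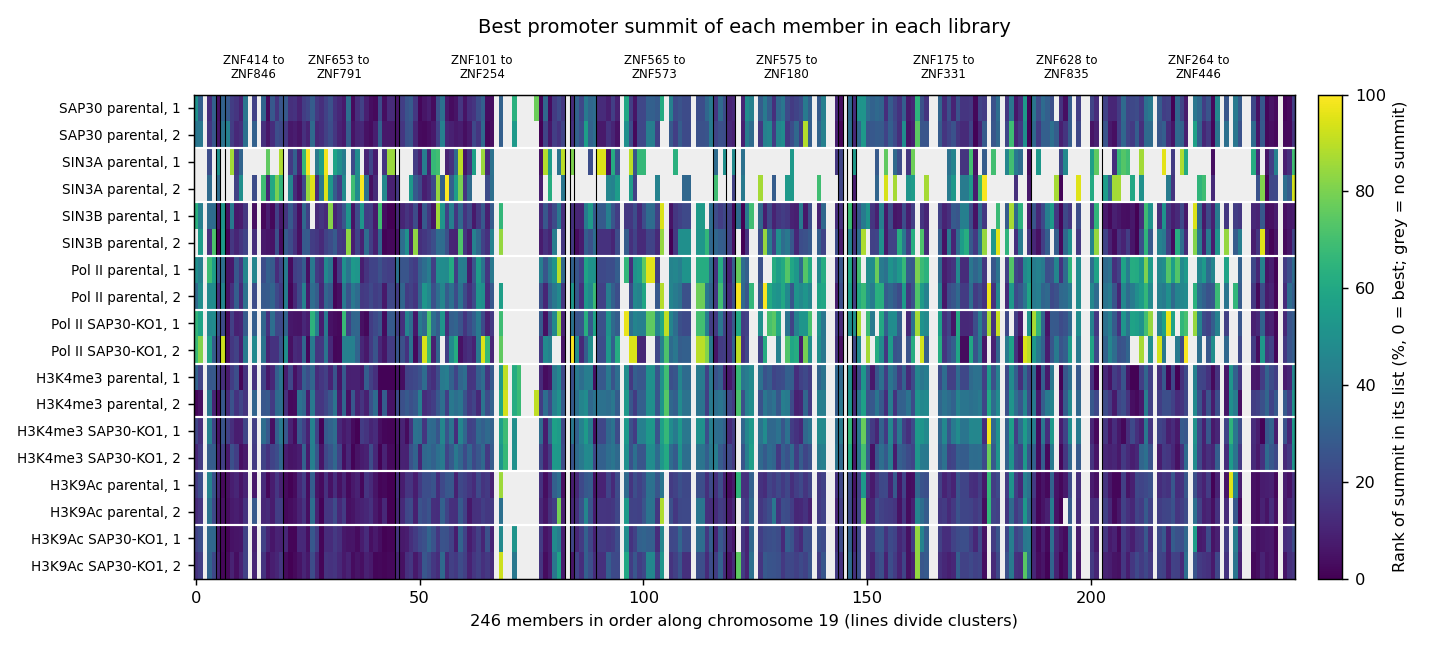
Rank of the best promoter summit of each of the 246 members, in order along chromosome 19 from left to right, in each of the 18 libraries (rows, with the replicate number). Colour runs from 0% (best summit of the list) to 100%, grey marks members without a summit, and black lines divide clusters of members. Members without a summit form grey columns through all rows, and the SIN3A rows have grey where SAP30 and SIN3B have summits.

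SAP30 and SIN3B were present together at 196 members, and SIN3A was the protein that divided them. SIN3A was in both replicates at 81 of the 196, in 1 of 2 at 51 and in neither at 64. The 64 members (32.7%) compare with 17.5% of all genes that held SAP30 and SIN3B and with 23.2% of ZNF genes of other chromosomes. No member held SIN3A in both replicates without SAP30. Among the 215 members with parental H3K4me3, SAP30 was at 96.7%, SIN3B at 91.6% and SIN3A at 37.7%, against 93.9%, 79.6% and 48.6% of all genes with H3K4me3. In ZNF genes of other chromosomes with H3K4me3 the shares were 94.6%, 83.9% and 37.2%, so the lower share of SIN3A was common to both ZNF sets.

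The SIN3A lists are the shortest, so the proteins were also compared with every list limited to its best 10861 summits. SAP30 was then at 144 members, SIN3B at 150 and SIN3A at 79. In all genes the order was different, with SAP30 at 44.8%, SIN3B at 36.8% and SIN3A at 31.0%, against 58.5%, 61.0% and 32.1% of the members. At equal list length the members thus had SIN3B at least as often as SAP30, which was not the case over all genes.

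The presence of SIN3A went with stronger peaks of the other proteins. Among members with SAP30 and SIN3B, the median of the mean SAP30 rank was 9.61% where SIN3A was in both replicates, 20.7% where it was in 1 and 32.3% where it was in neither. For SIN3B these medians were 14.8%, 20.7% and 31.4%, and for Pol II they were 24.9%, 38.2% and 51.5%. The order was the same in other genes, where the SAP30 medians were 8.90%, 20.2% and 29.8%. Pol II was in both parental replicates at 84.4% of the members with SIN3A in neither, and at 100% of the rest. By these medians, members without a SIN3A summit had the weaker peaks of the other proteins, and whether SIN3A was present there below the limit of the lists was not detectable.

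The strongest SAP30 peaks among the members were at ZNF331, ZNF724, ZNF888, ZNF324B and ZNF497. ZNF331, an imprinted gene, ranked at 0.95% and 1.01% of the SAP30 lists, at 3.3% and 6.3% for SIN3A and at 8.2% and 16.1% for SIN3B. Its Pol II summits were weak, at 51.9% and 58.4% in parental cells. ZNF724 ranked at 2.0% and 0.7% for SAP30 and at 4.3% and 7.8% for SIN3A. ZNF497 ranked at 1.7% and 2.2% for SAP30, and it had the best mean rank of the members for SIN3A, at 5.4% and 0.7%. These 5 promoters held all 3 proteins in both replicates, and ZNF331, ZNF724, ZNF888 and ZNF497 were also among the 5 best for SIN3A, with ZNF441 as the fifth.

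The strongest SIN3B peaks lay at other members. ZNF576 ranked at 0.2% and 0.4% for SIN3B, while its SAP30 summits ranked at 10.2% and 8.5% and its SIN3A summits at 37.4% and 40.7%. ZNF17 ranked at 0.8% and 0.4% for SIN3B and had no SIN3A summit in either replicate. ZNF490 and ZNF791, which share 1 promoter between them, had the same best SIN3B summits, at 0.5% and 2.1%, and ZNF581 ranked at 1.7% and 2.5%. None of these was among the 5 best for SAP30 or SIN3A. By their best SAP30 summit in replicate 1, 14 members shared a promoter in pairs, such as ZNF565 with ZNF146 and ZNF569 with ZNF570, so these are not separate measurements. By the same measure, 29 SAP30 summits were shared between a member and a protein-coding gene outside the set. Such summits cannot be assigned to the member alone.

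H3K9Ac at the members was less strong than at their neighbours. Member summits had a median rank of 14.6% and 15.9% in the parental replicates, those of the other chromosome 19 genes 9.42% and 9.55%, those of ZNF genes of other chromosomes 10.9% and 11.7%, and those of all genes 12.1% and 12.5%. The same held for Pol II, with medians of 38.5% and 33.4% at members and 26.9% and 24.7% over all genes. ZNF genes of other chromosomes also had worse Pol II medians than all genes, at 32.1% and 28.3%. Those of the other chromosome 19 genes were 28.7% and 27.3%. SAP30 medians were closer together, at 20.4% and 19.96% for members and 17.1% and 17.6% for all genes. Member peaks of Pol II and H3K9Ac thus had worse median ranks than those of all genes, though H3K9Ac still ranked high in its lists. Summits stood a median of 70.5 and 57 bp downstream of the nearest start site for SAP30 and 190 and 205 bp downstream for parental H3K4me3.

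Some members have well-studied roles, and those given here were chosen for them after the values were seen. ZNF91 and ZNF93, which silence the SVA and L1 retrotransposons respectively, had promoter summits in 17 and 18 libraries. ZNF274, which is known to bind the last exons of other zinc finger genes and to bring SETDB1 there, was in 17. A list of 26 genes of the KRAB corepressor pathway and related heterochromatin factors, which also holds the KRAB zinc finger gene ZFP57, was likewise occupied, with 25 of 26 holding SAP30 and H3K4me3 in both replicates and 22 holding SIN3B. TRIM28 was in 17 libraries and SETDB1 in 16. SIN3A was in both replicates at 11 of the 26, among them HDAC1, HDAC2 and DNMT1, and ZFP57, known for keeping imprints, was in no library. In SAP30-KO1, limma called 0 of the 24, 25 and 24 tested for Pol II, H3K4me3 and H3K9Ac, with 0, 1 and 1 at an unadjusted p under 0.05.

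The members lay in 21 clusters, of which 8 had 10 or more members and held 222 of the 246 together. A cluster here is a set of members with start sites no more than 500 kb from the next. SAP30 and SIN3B were nearly even across the clusters. Among members with parental H3K4me3, SAP30 ranged from 91.7% to 100% and SIN3B from 83.3% to 100% over the 8 large clusters. SIN3A was uneven. It was in both replicates at 19 of 25 such members (76.0%) in the cluster from ZNF653 to ZNF791 and at 17 of 31 (54.8%) in the cluster from ZNF101 to ZNF254. It was at 2 of 19 (10.5%) in the cluster from ZNF575 to ZNF180 and at 5 of 24 (20.8%) in the cluster from ZNF565 to ZNF573. Both replicates taken singly gave the same contrast, with 19 and 22 of 25 in the first of these clusters against 3 and 6 of 19 in the third.

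**Figure D3:**
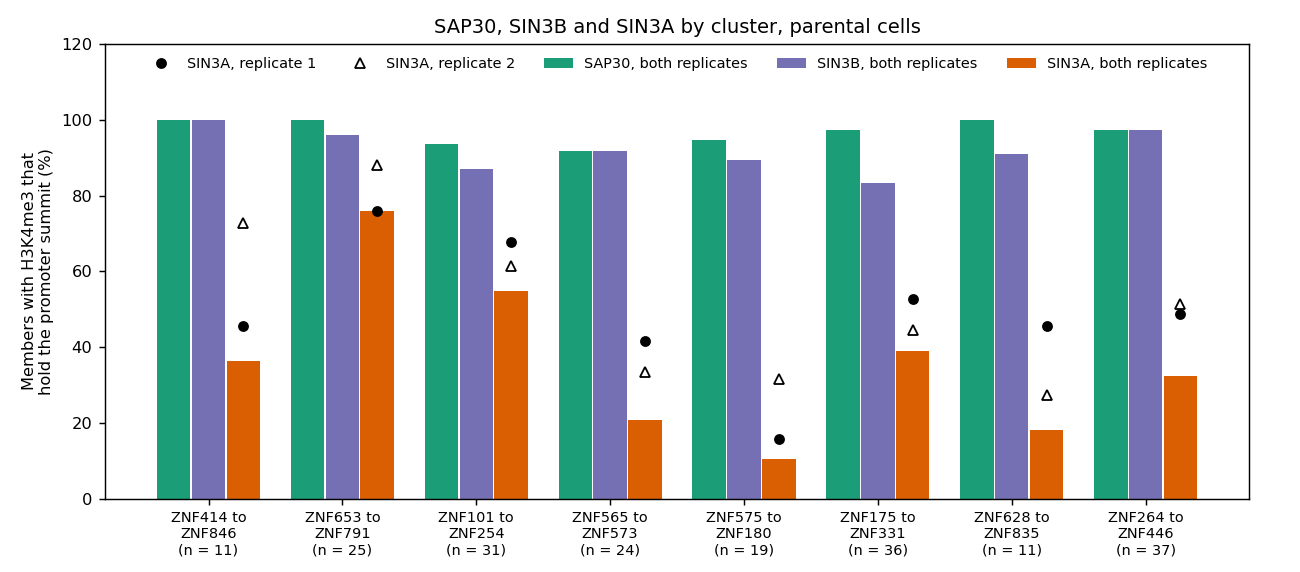
Share of members with parental H3K4me3 that held SAP30, SIN3B or SIN3A in both replicates (bars, in percent), in the 8 clusters with 10 or more members, in order along the chromosome. Circles and triangles give SIN3A in replicate 1 and replicate 2 alone, and n is the number of members with H3K4me3. SAP30 and SIN3B bars stay above 80% while SIN3A runs from 10.5% to 76.0%.

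The clusters that differed in SIN3A also differed in the promoter words shown above. The words are 8 letters long, were chosen after their counts had been seen, and were searched on both strands of the 300-base window. That window belongs to 1 start site of a gene, while its summits may lie at another. CCAATCAG was in 58 of the 215 members with H3K4me3 (27.0%), in 5.53% of other genes with H3K4me3 and in 5.21% of all promoters. It was in 22 of the 25 members of the cluster from ZNF653 to ZNF791 and in 30 of the 31 from ZNF101 to ZNF254, but in at most 1 member of any other large cluster. AATGTAGT was in 38 members (17.7%), against 0.991% of other genes with H3K4me3 and 1.04% of all promoters. TTCCCAGA was also in 38, against 2.47% and 2.67%. The 2 words occurred together in 17 members, in 14 of them overlapping by 1 base as printed for ZNF234. In the cluster from ZNF575 to ZNF180, TTCCCAGA was in 16 of 19 members.

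CCGGAAGT was in 43 of the 215 members, against 8.95% of other genes with H3K4me3 and 6.10% of all promoters, and 20 of the 43 were in the cluster from ZNF264 to ZNF446. No member with H3K4me3 held both CCGGAAGT and CCAATCAG. GGCGGGGC, the core of the GC box read by SP factors, was in 35.3% of members and in 37.8% of other genes with H3K4me3, and in 28.2% of all promoters.

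SIN3A was more frequent at members with CCAATCAG. It was in both replicates at 37 of 58 members with the word (63.8%) and at 44 of 157 without it (28.03%). Outside the cluster from ZNF653 to ZNF791 the numbers were 20 of 36 (55.6%) and 42 of 154 (27.3%). Of these 36 members, 30 lay in the cluster from ZNF101 to ZNF254, where SIN3A was at 54.8%, so this split does not separate word from cluster. In other genes with H3K4me3 the word made little difference, with SIN3A at 51.2% with it and 48.7% without. CCGGAAGT went the other way. SIN3A was at 16.3% of members with CCGGAAGT and 43.0% of members without it, whereas in other genes the shares were 60.8% with and 47.6% without. Members with TTCCCAGA held SIN3A at 21.1% and members without it at 41.2%. GGCGGGGC went with SIN3A as CCAATCAG did, at 40 of 76 members with it (52.6%) and 41 of 139 without it (29.5%), and at 47.7% and 24.8% outside the cluster from ZNF653 to ZNF791. In other genes these shares were 51.9% and 47.0%. SIN3B was at 93.1%, 95.3% and 97.4% of the members with the 3 words, so it did not divide them. Duplicated members share promoter sequence by descent and are not independent, so these are counts of related genes, and the word and the cluster cannot be told apart.

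The words were not always at the summit. From CCAATCAG to the best SIN3A summit the median distance was 188 and 150 bp in the replicates. From CCGGAAGT to the best SIN3B summit it was 61.5 and 81 bp, with 30 of 42 and 26 of 41 members within 100 bp.

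The 3′ exons, which encode the fingers, were nearly empty in all libraries. These are the last exons of the coding transcripts, less any base within 1000 bp of a start site, and they came to 1.01 Mb over 245 members. All 18 libraries together had 9 summits there, in 4 members. SAP30 had 1 summit in replicate 1 and 0 in replicate 2, and SIN3A and SIN3B had 0 in each. The other genes of chromosome 19 had 27.6 SAP30 summits per megabase of such exon in each replicate, ZNF genes of other chromosomes 8.69 in each, and all genes 12.2 and 11.99. Parental H3K9Ac had 0.992 per megabase in each replicate at members, and 30.3 and 26.9 at the other genes of chromosome 19. ZNF genes of other chromosomes, which encode fingers too, had more summits per megabase than the members in every library but those of SIN3A, where both had 0. This order did not hold under all definitions. With exons kept whole, SIN3B replicate 1 had 7.69 at members and 5.60 at ZNF genes elsewhere, Pol II in SAP30-KO1 replicate 2 had 4.81 and 3.73, and SIN3A had 0.962 and 0.933 in replicate 1 and 1.92 and 0 in replicate 2. With 3000 bp left out, Pol II replicate 2 had 2.15 and 2.12 in parental cells and 1.07 and 1.06 in SAP30-KO1, and with 250 bp added around the exons Pol II in SAP30-KO1 replicate 2 had 1.69 and 1.68.

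ZNF814 was the one member with a 3′ exon summit in both replicates of a group. It had H3K9Ac there in parental cells, at ranks of 66.4% and 93.3%, and in SAP30-KO1, at 92.7% and 54.8%, while its promoter had no summit in any library. These summits lay in the last exon of a shorter transcript, and no member had one in both replicates when the transcript with the longest coding sequence alone was used. It also had 1 H3K4me3 summit there in SAP30-KO1 replicate 2. The remaining summits were 1 of SAP30 at ZNF574 and 3 of Pol II, of which 2 were at ZNF557 in parental replicate 2 and 1 at ZNF44 in SAP30-KO1 replicate 2.

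**Figure D4:**
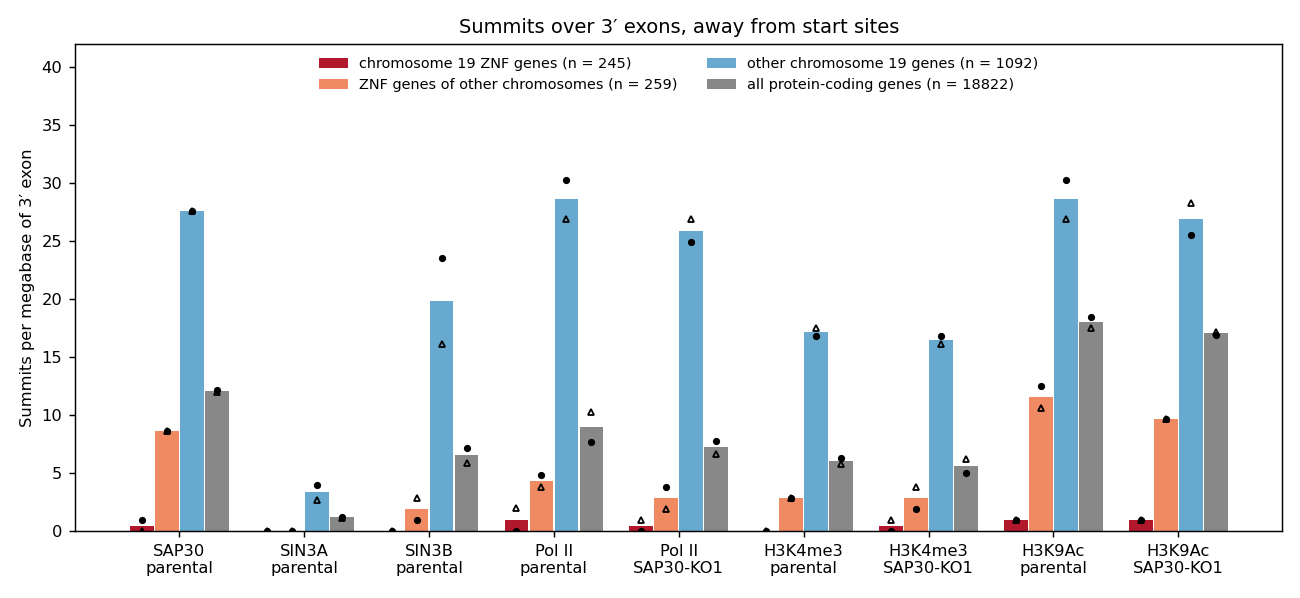
Summits per megabase of 3′ exon, away from start sites, for each antibody and cell line. Bars give the mean of the 2 replicates, filled circles replicate 1 and open triangles replicate 2, for the same 4 gene sets, with n the number of genes that have such an exon. The members stand between 0 and 1.98 in every library, and the other chromosome 19 genes between 2.69 and 30.3.

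Fewer reads can be placed in repeated sequence, and the exons of the members repeat more. In GRCh37, 83.0% of the 32-base windows in the members' 3′ exons occurred once, against 89.9% in the other genes of chromosome 19 and 88.4% in ZNF genes elsewhere. In the promoter windows the shares were 87.6%, 88.2% and 89.9%. The part of this in the low counts was not tested. From exon middle to nearest start site the median was 9219 bp at members, 4655 bp at the other genes of chromosome 19, 10485 bp at ZNF genes elsewhere and 8439 bp over all genes. With 3000 bp around each start site left out, a cut chosen after the first counts, the members still had 1 and 0 SAP30 summits and the other genes of chromosome 19 had 22.1 and 20.3 per megabase.

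Few members lost or gained a promoter peak outright in SAP30-KO1. Pol II was in both replicates at 198 members (80.5%) in parental cells and at 181 (73.6%) in SAP30-KO1. Over all genes the shares were 57.5% and 53.7%. Presence in a list and rank within it cannot show a change in strength that all promoters share. Lost promoter peaks, held by both parental and neither SAP30-KO1 library, were seen at 2 of 198 members for Pol II (2.33% of all genes), 2 of 215 for H3K4me3 (1.43% of all genes) and 2 of 209 for H3K9Ac (0.689% of all genes). Gained peaks were seen at 1 of 35 members for Pol II (0.334% of all genes), at 0 of 30 for H3K4me3 (0.296%) and at 1 of 34 for H3K9Ac (0.9%). The counts of the members are too small to be set apart from these background shares.

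For Pol II the lost peaks were at ZNF223, which ranked at 60.8% and 60.1% in parental cells, and at ZNF836, at 67% and 54.3%. The gained peak was at ZNF585B, at 90.4% and 71.9% in SAP30-KO1. H3K4me3 was lost at ZNF492, from 68.9% and 67.3%, and at ZNF575, from 67.2% and 71.7%. H3K9Ac was lost at ZNF577, from 53.5% and 77.7%, and at ZNF415, from 67.02% and 66.3%, and gained at ZNF98, at 51.9% and 40.0%. Apart from the H3K9Ac peak of ZNF98 in 1 library, these peaks ranked in the lower part of their lists, and ZNF223 and ZNF836 kept H3K4me3 and H3K9Ac in all 8 libraries of these marks.

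The strength of the peaks was compared by limma on the normal score of the rank, over all genes with a promoter summit in all 4 libraries of a mark. A positive change means a better rank in SAP30-KO1. With 2 libraries against 2, an exact permutation test of a single value cannot go below 0.33, so calls rest on the spread shared over all genes. Nothing in the labels says that the replicates were separate cultures, and the p-values then measure only the spread between these libraries.

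H3K4me3 was the mark with called members, 3 of 213. An unadjusted limma p under 0.05 was seen at 12 of the 213 members and at 1135 of 12531 genes. ZNF676, in the sparsely occupied stretch described above, ranked at 90.4% and 93.0% in parental cells and at 68.7% and 67.1% in SAP30-KO1. Its rank rose (change 0.93, SE 0.18, limma adjusted p = 0.00887), and 0.016% of all genes were called in that direction. ZNF415 ranked at 55.0% and 60.2% in parental cells and at 98.4% and 77.5% in SAP30-KO1, and it fell (change −1.27, SE 0.25, limma adjusted p = 0.0148). ZNF577 ranked at 53.1% and 56.8% and then at 76.7% and 70.2%, and it fell as well (change −0.50, SE 0.12, limma adjusted p = 0.0449). Of all genes 0.471% were called lower. In each of the 3 members both knockout ranks lay outside both parental ranks, and ZNF415 and ZNF577, which lie in the cluster from ZNF175 to ZNF331, also lost H3K9Ac. None of the 3 was called without parental replicate 1 (limma adjusted p = 0.101, 0.201 and 0.436 for ZNF676, ZNF415 and ZNF577) or without parental replicate 2 (0.156, 0.0554 and 0.317), and ZNF577 was not called without SAP30-KO1 replicate 1 (0.0641). ZNF415 and ZNF577 were also not called with ranks among the tested genes, a 500 bp window or a peak in 2 of 4 libraries (limma adjusted p from 0.0509 to 0.495).

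For Pol II no member of 178 was called by limma, nor was any gene (0.0% in either direction), while 18 members had an unadjusted p under 0.05 and 856 of 10706 genes did. Among members whose parental and SAP30-KO1 ranks did not overlap, the largest changes toward a better rank were at ZNF345, from 74.8% and 58.9% in parental cells to 43.2% and 10.8% in SAP30-KO1 (change 1.15, SE 0.38, limma adjusted p = 0.538), at ZNF433, from 39.5% and 28.4% to 5.0% and 11.5% (change 1.00), and at ZNF780B, from 61.9% and 69.5% to 39.2% and 17.5% (change 1.00). The largest toward a worse rank were at ZNF567, from 13.6% and 23.7% to 36.7% and 94.9% (change −1.61, SE 0.52, limma adjusted p = 0.538), at ZNF551, from 53.6% and 48.1% to 70.7% and 99.2% (change −1.58), and at ZNF628, from 42.1% and 40.9% to 87.0% and 53.9% (change −0.87). The 2 SAP30-KO1 libraries differed by more than the parental ones at 5 of these 6 members. With either SAP30-KO1 library left out, the other is assumed to vary like the parental group, so calls from such a fit are not comparable. The median change of the members was 0.05 without SAP30-KO1 replicate 1 (all genes −0.10) and 0.03 without replicate 2 (all genes −0.02).

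The members as a set moved little in the rank of Pol II. Both SAP30-KO1 ranks were better than both parental ranks at 23.03% of the members (15.4% of all genes) and worse at 18.5% (24.2% of all genes). The median change was 0.02 at members, with quartiles of −0.26 and 0.25, and −0.07 over all genes. It was 0.21 against 0.00 when ranks were taken among the tested genes, and it was −0.06 against −0.12 without parental replicate 1. The members stood above the median of all genes in these fits, by 0.09 in the first. By position, the median was 0.13 over 67 members of the short arm and −0.02 over 111 of the long arm.

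For H3K9Ac no member of 207 was called by limma, and 1 of 12048 genes was (0.0083% higher, 0.0% lower), while 15 members and 1024 genes had an unadjusted p under 0.05. ZNF564 went from 2.2% and 11.5% to 0.7% and 1.4% (change 0.73, SE 0.29, limma adjusted p = 0.489), and the next toward a better rank were ZNF865, from 2.6% and 8.9% to 2.3% and 0.9% (change 0.54), and ZNF799, from 12.1% and 14.4% to 4.0% and 7.3% (change 0.48). ZNF610 went from 33.2% and 45.5% to 83.9% and 83.7% (change −1.26, SE 0.46, limma adjusted p = 0.451). ZNF490 and ZNF791 went, by their shared summit, from 0.3% in both parental libraries to 1.2% and 2.1% (change −0.61). These too were the largest changes among members whose groups did not overlap.

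Over the set, both SAP30-KO1 ranks of H3K9Ac were better at 14.5% of members (16.4% of all genes) and worse at 25.1% (22.1% of all genes), with a median change of −0.05 against −0.02. For H3K4me3 the shares were 9.39% better (11.5%) and 19.2% worse (28.1%), with a median of −0.07 against −0.08. In the other genes of chromosome 19 the H3K4me3 shares were 13.6% better and 18.2% worse, and in ZNF genes elsewhere 13.6% and 23.6%. The H3K4me3 median of the members turned to 0.01 without parental replicate 1 (all genes −0.05) and to 0.0018 without SAP30-KO1 replicate 1 (all genes −0.03), and it was −0.14 without parental replicate 2 (all genes −0.10). The clusters did not all stand at the same place. In the cluster from ZNF653 to ZNF791 the median change was 0.13 (Pol II), 0.12 (H3K4me3) and 0.11 (H3K9Ac) over 25 members, and in the cluster from ZNF575 to ZNF180 it was 0.06, −0.13 and −0.12. These values by cluster carry no test and share the same 4 libraries of each mark.

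**Figure D5:**
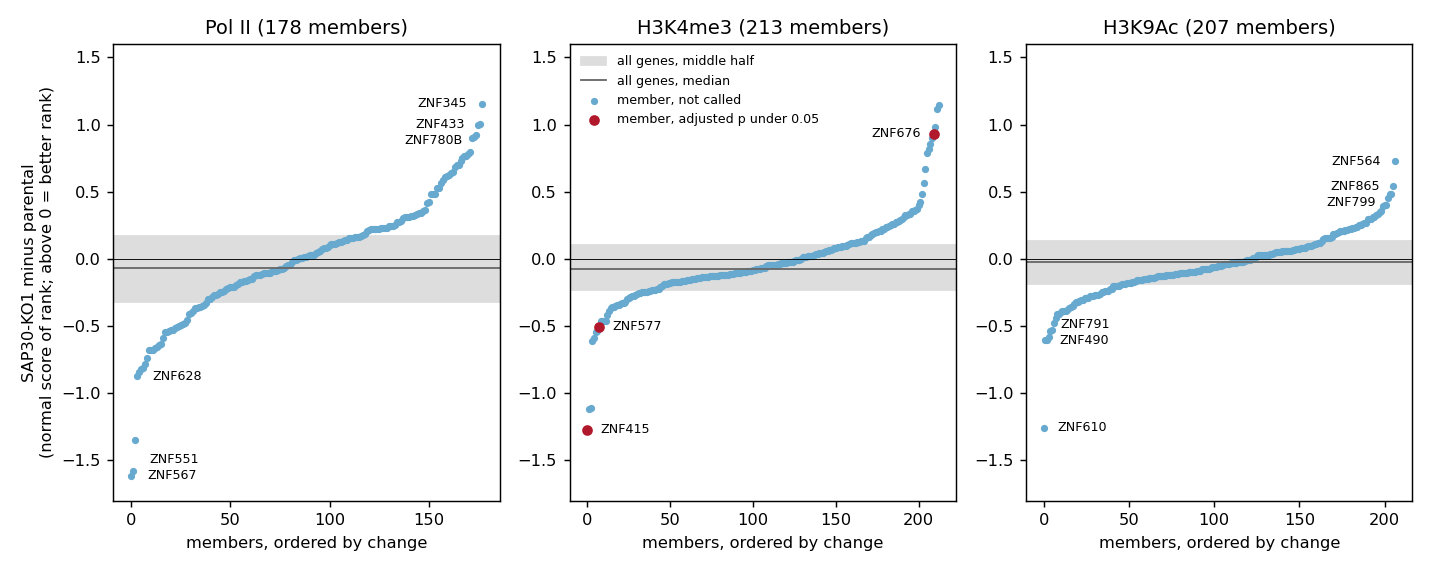
Change in the normal score of the rank of the best promoter summit, SAP30-KO1 minus parental, for each member with a summit in all 4 libraries of Pol II, H3K4me3 or H3K9Ac, ordered by the change. The grey band is the middle 50% of all genes, the grey line their median, and red points are members called by limma at an adjusted p under 0.05, which are ZNF676, ZNF415 and ZNF577 for H3K4me3. Named points without red are those with the largest non-overlapping change where no member was called.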

How the data were processed

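Peak summits of 18 ChIP-seq libraries from MDA-MB-231 cells were analysed, grouped by antibody and cell line as the labels give them. A further 12 samples of the series (input chromatin and total histone H3) were not analysed here. The authors deposited, per library and not on pooled replicates, 1-bp MACS2 summits whose score is the −log10 of a q-value, the lowest being 1.30. The submitters' processing notes name hg19, FastQC 0.11.2, Bowtie2 2.3.3.1, Picard and MACS2 2.1.0. Peaks below that score are not listed, and depth is unknown, so scores were used as ranks within a list, and no interval needing depth is given.

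Genes and start sites were those of basic transcripts in GENCODE release 44 lifted to GRCh37. Summits were assigned to genes with Python 3.11.15, pandas 2.3.3 and pysam 0.24.0, and ranks were compared with limma 3.58.1 (trended eBayes, Benjamini-Hochberg over all genes tested, threshold 0.05) in R 4.3.3. On simulated normal scores with 200 shifted genes, limma recovered 88% of shifts of 2 normal-score units for Pol II (10706 genes), 68% for H3K4me3 (12531) and 96% for H3K9Ac (12048). Of shifts of 1 unit it recovered 25%, 46% and 65%. The noise had a spread shared by genes of similar score, without a spread particular to each gene. The shares may therefore overstate recovery in the data. Members named are all those called by limma or, if none, the 3 with the largest non-overlapping change each way, all with a lost or gained peak, the 5 best mean ranks of SAP30, SIN3A and SIN3B, those with a 3′ exon summit in both replicates, and the first 5 without any summit. The members, the gene lists and the tests were chosen with earlier results of these data known. Alternatives were other windows, list lengths, scales, filters, exon definitions, the replicate number as a block, 1 gene per summit and each replicate left out.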

Additional observations from a re-analysis of the deposited data

How the results depend on the processing

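The counts of members with a promoter peak in both replicates stayed within 1.5 times under the alternatives, except as follows. For SIN3A, the better-ranked 50% of each list gave 45 members and a peak in either replicate 137. With lists limited to the shortest, Pol II in SAP30-KO1 was at 116 members and H3K9Ac at 125 in parental cells and 126 in SAP30-KO1. Leaving out a replicate gave 109 for SIN3A and 186 to 202 for Pol II in SAP30-KO1.

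Lost Pol II peaks numbered 4 with lists of equal length and 2 to 16 with a replicate left out, 16 being without SAP30-KO1 replicate 1. That count rests on SAP30-KO1 replicate 2 alone, which held Pol II at 75.6% of members and 54.8% of all genes. In SAP30-KO1 replicate 1 these shares were 82.1% and 56.8%. The shares of all genes with a lost peak under these settings are not given, so the counts cannot be set apart from them. Gained Pol II peaks numbered 2 within 500 bp, 0 with equal lists and 1 to 3 with a replicate left out. H3K4me3 peaks lost numbered 1 within 3000 bp, H3K4me3 peaks gained 1 with equal lists, and H3K9Ac peaks gained 1 to 2 with a replicate left out. For these gained Pol II peaks and these H3K4me3 and H3K9Ac peaks the shares of all genes are not given either. The counts therefore cannot be set apart from the background.

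The median Pol II change of the members was 0.21 on the log2 score and 0.21 with ranks among tested genes, and −0.06 to 0.10 with a replicate left out. The median H3K9Ac change of the members was −0.084 to −0.013 with a replicate left out, and that of H3K4me3 was −0.14 to 0.01, turning sign without parental replicate 1 or SAP30-KO1 replicate 1. Members called for Pol II numbered 0 to 24 with a replicate left out, and for H3K4me3 7 on the log2 score and 0 to 3 with a replicate left out. Over all genes, Pol II calls went from 0 to 1028 and 434 without SAP30-KO1 replicate 1 and 2, to 1 and 5 without parental replicate 1 and 2, and to 1 on the log2 score and within 500 bp. H3K4me3 calls went from 61 to 138 (log2 score), 152 (peak in 2 of 4 lists), 34 (500 bp) and 14 to 192 (a replicate left out), and H3K9Ac calls from 1 to 4 (2 of 4 lists), 6 (500 bp), 0 (3000 bp) and 29 to 60 (a replicate left out). The causes were not tested.

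The replicate numbers did not pair the libraries, since deviations of same-numbered libraries correlated at 0.014, −0.0092 and −0.0056 for Pol II, H3K4me3 and H3K9Ac. With the number as a block, Pol II had 1 called member (ZNF567, limma adjusted p = 0.0154) and 30 called genes, H3K4me3 had 3 and 78, and H3K9Ac had 0 and 37.

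With 3′ exons kept whole, members with a summit in both replicates numbered 4 for SAP30, 1 for SIN3A, 2 for SIN3B, 2 for Pol II in each line, 3 and 2 for H3K4me3 in parental and SAP30-KO1 cells, and 4 for H3K9Ac in each. Leaving out a replicate gave 0 to 1 for SAP30, Pol II and H3K4me3. The single H3K9Ac member was lost (0 in each line) with the longest coding transcript, the better-ranked 50% of each list, or 3000 bp left out around start sites, the last added after the data were seen.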
